A study of Mus musculus with 54 samples.

Results

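The nuclear-encoded genes of oxidative phosphorylation (OXPHOS) were described across clones, tumors and metastases of the mouse 4T1 mammary carcinoma line. They were taken as every row of the deposited table of 23481 genes whose symbol begins with Nduf, Uqcr, Atp5, Cox4, Cox5, Cox6, Cox7 or Cox8, or is Sdha, Sdhb, Sdhc or Sdhd. This gave 92 rows, of which 88 were above the lowest value of the table in at least 27 of the 54 libraries. Tests were limited to genes whose normalized count reached 10 in 2 or more libraries, which left 83 of the 92 in the clones and 84 in the comparisons with specimens.

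OXPHOS takes place in the inner mitochondrial membrane. Complex I (NADH dehydrogenase, the Nduf genes) and complex II (succinate dehydrogenase, the Sdh genes) pass electrons to ubiquinone, complex III (the Uqcr genes) passes them to cytochrome c, and complex IV (cytochrome c oxidase, the Cox genes) passes them to oxygen. The proton gradient that complexes I, III and IV build drives the ATP synthase, complex V (the Atp5 genes). A small group of subunits is encoded by mitochondrial DNA, and all others, with the assembly factors named Ndufaf, are nuclear genes scattered over the chromosomes.

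Of the 54 libraries, 46 came from 23 clones, lettered A to W, each grown in culture from 1 sorted 4T1 cell. Clones E and T were labelled intravasating after the clones had been tested in a pool for entry into the blood stream, and the other 21 were labelled non-intravasating. The other 8 libraries came from 2 metastases of the lung, called Lung_1 and Lung_2, and from 2 tumors grown orthotopically, called Tumor_1 and Tumor_2. Their labels give 4T1 as the source, repeat the culture medium of the clones (high-glucose DMEM with bovine and calf serum) and name no host strain, age or treatment. All libraries were made from total RNA by the same amplification kit, NuGEN Ovation. Every clone and specimen had 2 libraries, A and B. The labels do not say that these came from separate cultures or pieces of tissue, so p-values that rest on them measure the spread between these libraries, which may be technical. They also do not say whether tumor cells were separated from host cells.

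The clone libraries held between 8849257 and 31609870 counted reads, those of tumors between 12183058 and 17369960, and those of metastases between 16327693 and 20368740. Levels below are normalized counts recovered from the deposited log2 values, and differences are on the deposited log2 scale, which compresses differences between low counts. Library B of Tumor_2 stood apart for the OXPHOS genes: the median of their log2 deviations from the clones' mean was -0.81 in it and 0.39 in library A of the same tumor. The counts, medians and named genes that moved most without it are given with and without it. The A libraries of the metastases also stood apart: 20278 and 19868 genes had a read in them, against 16604 and 16972 in the B libraries, and the OXPHOS median of Lung_2 was -0.47 in A and -0.06 in B. The summed counts of marker lists of macrophages, fibroblasts, leukocytes and endothelium are given beside the specimen results.

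OXPHOS genes are short. Their median transcript length was 738.5 bases against 2792.5 for 10890 genes measured in most libraries, and 59 of the 92 were under 1000 bases against 7.71% of those genes. Genes were assigned to complexes by the beginning of their symbol. Atp5s and Atp5sl, also named Dmac2l and Dmac2, were thus counted with complex V, and Ndufa4 with complex I. Scaled by transcript length, the Atp5 genes held both extremes over the clones. Atp5b, the catalytic beta subunit of the ATP synthase (chromosome 10, 128083273 to 128090391, plus strand; GENCODE M21 on GRCm38), had the highest level, at a median of 37734 normalized counts per kilobase. Atp5s, which encodes coupling factor B, had the lowest of the 83, at 60.7 per kilobase. The median per kilobase was 2927 for the 11 subunits of complex IV, 2063 for the 17 Atp5 genes, 1656 for the 8 Uqcr genes, 1312 for the 4 Sdh genes and 982 for the 36 subunits of complex I. It was 223.5 for the 7 complex I assembly factors, whose products build the complex and are not part of it.

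Tissue-restricted isoforms of complex IV were at the edge of detection. Cox4i2, the isoform known from lung, had a median of 1.02 normalized counts over the clones. Cox7a1 and Cox8b, known from heart and skeletal muscle, had medians of 3.13 and 0.801, and Cox6b2, known from testis, of 0.548. The complex IV partner Ndufa4l2, known as a gene induced in low oxygen, had 2.08, with 0.475 and 1.65 in the tumors and 2.54 and 3.31 in the lung metastases. In the specimens Cox7a1 had means of 6.43 and 9.82 in the tumors and 6.27 and 9.50 in the metastases, within or above the 1.20 to 7.09 of the clones, and did not pass the threshold (adjusted p = 0.138 and 0.0815). Cox4i2 had 6.91 in Tumor_2, from 1.0 count in library A and 12.9 in library B, where the highest clone had 2.55. The muscle form Cox6a2 had reads in 14 libraries, at most 4.81 counts as a clone mean, in clone J. The testis forms Cox7b2 and Cox8c had reads in 2 libraries each. Ndufs5, an accessory subunit of complex I, was listed without a read in all 54 libraries. Whether this came from the counting or from the cells was not tested. The broadly expressed counterparts were abundant, with medians over the clones of 7309 counts for Cox4i1, 3466 for Cox6a1, 1508 for Cox6b1, 1395 for Cox7a2, 1848 for Cox7b and 3248 for Cox8a. The complex V c subunit is encoded by 3 genes for the same mature protein, and these had medians of 4448 counts for Atp5g3, 940 for Atp5g1 and 910 for Atp5g2.

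The exons of 26 of the 92 genes overlap another coding gene, 4 of them on the same strand, and 5 have a pseudogene named after them (Atp5c1, Atp5k, Atp5l, Ndufab1 and Uqcrh). Pseudogene copies under other names were not searched. Whether the counting used strand is not given in the sources used here, so it is not known how reads that fit both a gene and its partner were counted.

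The first comparison asked how far the 23 clones differ from each other. In a moderated F-test over the 46 clone libraries (limma, adjusted p under 0.05), 77 of the 83 OXPHOS genes differed among clones, 92.8%, against 95.1% of the 13637 genes tested. The 6 that did not pass were Atp5d, Atp5j, Atp5k, Ndufa3, Ndufs7 and Uqcr11. The spread between clones was smaller and that between libraries larger than usual: the median SD between clone means was 0.25 for the OXPHOS genes and 0.29 for all genes, and the median SD between the 2 libraries of a clone was 0.19 and 0.14. From the lowest to the highest clone, 39 of the 83 ranged over at least 1 log2 unit (47.0%), against 63.3% of all genes.

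Ndufv3, a small subunit of the NADH-oxidising arm of complex I (chromosome 17, 31520115 to 31531331, plus strand), had the widest range, from 193 counts in clone J over a median of 537 to 1022 in clone S. Both libraries of J (180 and 207) were below, and both of S (1196 and 848) above, every library of the other 21 clones (F-test adjusted p = 6.26e-11). Ndufb11, a membrane-arm subunit of complex I on chromosome X, ran between the same clones, from 349.5 counts in J to 1426 in S (adjusted p = 2.02e-07). Ndufaf4, a complex I assembly factor on chromosome 4, ran from 380 counts in S to 1462 in clone Q, and its A and B libraries followed each other over the 23 clones with r = 0.950 (adjusted p = 1.57e-16). Cox7a2l, which encodes a factor that joins complexes III and IV into supercomplexes, ran from 2335 counts in J to 7312 in S (adjusted p = 1.17e-09). The other 6 of the 10 widest ranges were Ndufa1, Atp5f1, Uqcrh, Uqcrq, Ndufa4 and Ndufb9, at 1.52 to 1.39 log2 units. The narrowest ranges among genes with a mean of at least 50 counts were those of Atp5d (0.54), Cox8a (0.63), Ndufa3 (0.65), Atp5s (0.67), Ndufa9 (0.69) and Ndufab1 (0.71).

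Clone differences of OXPHOS genes followed the chromosome on which the gene lies more than the complex to which its product belongs. For each gene the most alike of 13496 tested and mapped genes was found, by Pearson correlation over the 23 clone means. It lay on the gene's own chromosome for 67 of 83 OXPHOS genes (80.7%), whereas on average 5.40% of those genes lie on the chromosome of an OXPHOS gene. In 46 of these 67 cases it was over 10 Mb away. The same share over all tested genes is not given here, so the pattern is not shown to be particular to OXPHOS genes. Pairs of OXPHOS genes on the same chromosome had a median r of 0.60 when they shared a complex (60 pairs) and of 0.58 when they did not (108 pairs). Pairs on different chromosomes had a median r of 0.18 within a complex (1068 pairs) and of 0.22 between complexes (2167 pairs). These correlations are descriptions over 23 points. All genes share the same libraries, and the counts of overlapping genes may depend on each other.

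**Figure D1:**
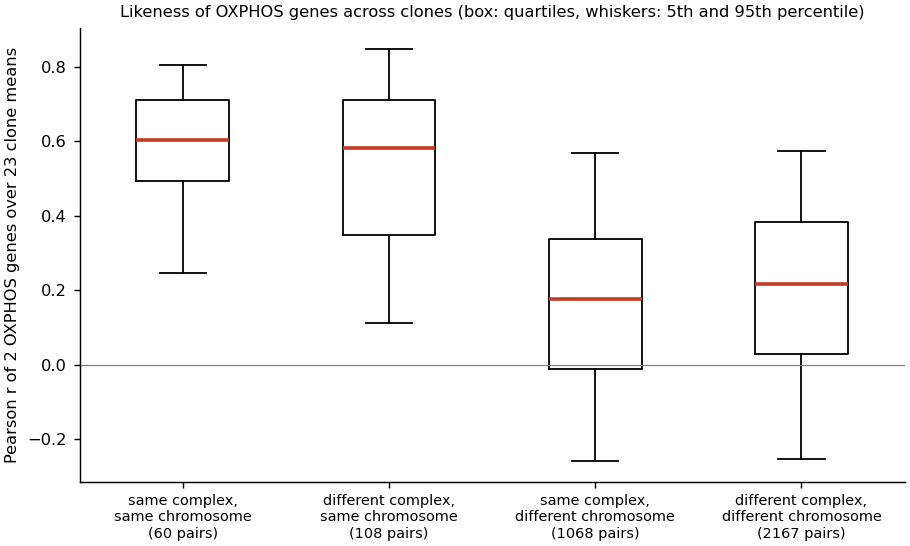
Pearson correlation of 2 OXPHOS genes over the 23 clone means (vertical axis), for pairs that share a complex, a chromosome, both or neither. Boxes show quartiles with the median in red, and whiskers the 5th and 95th percentiles. The medians are 0.60 and 0.58 for pairs on the same chromosome and 0.18 and 0.22 for pairs on different chromosomes.

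The level of a chromosome in a clone was taken as the median deviation of its tested genes outside the OXPHOS set. With its own chromosome's level an OXPHOS gene had a median r of 0.55, and with the other 19 chromosomes' levels a median of -0.04. The own chromosome ranked first of 20 for 60 of the 83 genes. Keeping only the A libraries or only the B libraries left 63 of 83 genes with their most alike gene on their own chromosome in each case, and leaving out each clone in turn left 61 to 70.

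The 3 OXPHOS genes tested on chromosome X were all lowest in clone J. They are Ndufa1, an accessory subunit needed to assemble complex I (37187588 to 37191163, minus strand), Ndufb11 (20615326 to 20617619, minus strand) and Cox7b, a structural subunit of complex IV (106015700 to 106022450, plus strand). Ndufa1 had 203 and 273 counts in the 2 libraries of J and a median of 526 over the clones (F-test adjusted p = 1.32e-07). Ndufb11 had 334 and 365 in J and a median of 739. Cox7b had 1112 and 971 in J and a median of 1848, and was highest in clone U with 2679 (adjusted p = 4.52e-06). The other genes of chromosome X were also lowest in J, at a level of -0.46 log2 units over 418 genes. Over the 23 clones, Ndufa1 and Cox7b followed each other with r = 0.89, Ndufa1 and Ndufb11 with 0.80 and Cox7b and Ndufb11 with 0.79. The exons of Ndufb11 overlap those of Rbm10 on the other strand.

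On chromosome 4, 3 OXPHOS genes of 3 different complexes were highest in the intravasating clone T: Sdhb, the iron-sulfur subunit of complex II (140961203 to 140979193, plus strand), Uqcrh, the hinge protein of complex III (116066965 to 116075071, minus strand), and Ndufb6 of complex I. Sdhb had 2397 and 2080 counts in the libraries of T, a median of 1202.5 over the clones and its lowest mean, 892, in clone S (adjusted p = 1.35e-07). Uqcrh had 3421 and 2984 in T and a median of 1897, and Ndufb6 a mean of 816 in T and a median of 437. The 825 other genes of chromosome 4 were highest in T (0.30 log2 units) and lowest in S (-0.46). In S, Ndufaf4, Ndufaf6 and Sdhb had their lowest means of all clones. Ndufaf4 followed chromosome 4 less (r = 0.29), and its most alike gene was Dkc1, on chromosome X.

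On chromosome 8, Cox4i1 (120668222 to 120674207, plus strand), Ndufa13 and Ndufb7 were all lowest in clone G, where the 724 other genes of the chromosome stood at -0.55. Cox4i1, the main isoform of an early-assembling subunit of complex IV, had 3438 and 3866 counts in G against a median of 7309, and 1 library of another clone, at 3668, lay between them (adjusted p = 6.27e-07), and its r with the level of chromosome 8 was 0.86, the highest of the 83 genes. Its exons overlap those of Emc8 on the other strand. On chromosome 17, 6 of 7 genes were lowest in J, among them Ndufv3, Cox7a2l and Ndufaf7, while the other genes of that chromosome were at -0.14, the second lowest level. The 6 genes stood lower than that, from -0.42 (Ndufv2) to -1.14 (Ndufv3). The blocks of clone O followed their chromosome less: 4 of 7 genes of chromosome 13 and 3 of 5 of chromosome 10 were lowest in it. The other genes of these chromosomes stood there at -0.09 and -0.07, the 6th and 8th lowest levels. On chromosome 1, 5 of 6 were lowest in clone C, among them Cox5b, Ndufa10, Ndufb3 and Ndufs1. The other genes of chromosome 1 stood at -0.28 in C, their 2nd lowest level. Clone J had the lowest mean of 21 of the 83 OXPHOS genes and clone U the highest mean of 17. On chromosome 3, all 3 (Atp5f1, Ndufb5 and Ndufc1) were highest in clone U, where the other genes of that chromosome were also highest, at 0.28. On chromosome 5, all 3 (Atp5j2, Atp5k and Cox6a1) were lowest in clone B and highest in clone H. The other genes of chromosome 5 stood at -0.16 in B and 0.06 in H, their 3rd lowest and 6th highest levels. The weakest relation with the own chromosome was that of the assembly factor Ndufaf5 on chromosome 2 (r = 0.01). DNA copy number was not measured in these files, and its part in these patterns was not tested.

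**Figure D2:**
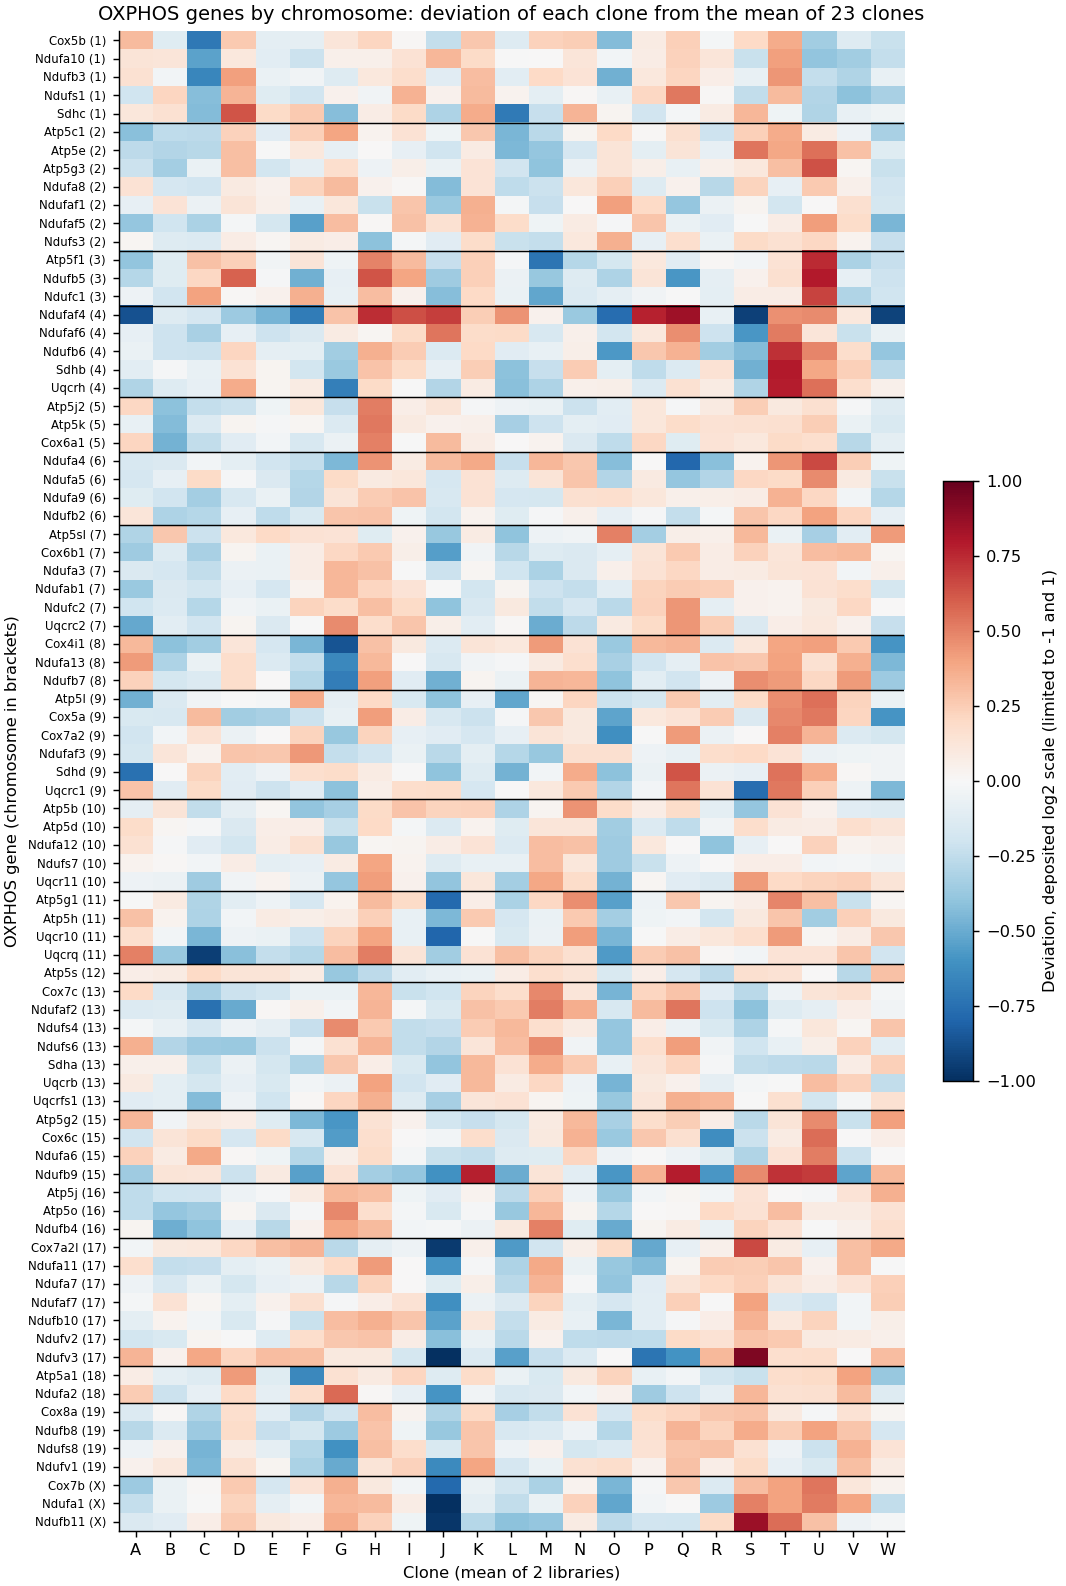
Deviation of each of 82 OXPHOS genes (rows, ordered by chromosome, with black lines between chromosomes) from its mean over 23 clones (columns), on the deposited log2 scale from blue (lower) to red (higher). Genes of a chromosome form blocks, such as the 3 genes of chromosome X in clone J, the 3 of chromosome 8 in clone G and Sdhb, Uqcrh and Ndufb6 of chromosome 4 in clone T.

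The promoter sequences of these co-varying genes are shown to let the reader compare them. RefSeq windows (GRCm38.p6, 250 bases before to 50 after a start) were matched for 76 of the 92 genes. The 250 bases before the start are printed 5′ to 3′ on the strand of the gene, for the 3 genes of chromosome X, for Sdhb and Uqcrh of chromosome 4, and for Cox7c and Ndufs6, each the most alike gene of the other (chromosome 13, r = 0.93). Capitals mark 1 of 5 searched motifs on either strand: the core GCATGCGC of nuclear respiratory factor 1 (NRF1), CCGGAAG of ETS factors such as GABPA, AAGATGGCG of YY1, TATAAA of the TATA box and TGACGT of the cAMP response element. The windows are chrX:37191239-37191488 (minus strand), chrX:20617620-20617869 (minus), chrX:106015450-106015699 (plus), chr4:140961021-140961270 (plus), chr4:116075071-116075320 (minus), chr13:86046796-86047045 (minus) and chr13:73328483-73328732 (minus), in the order of the lines.
Ndufa1: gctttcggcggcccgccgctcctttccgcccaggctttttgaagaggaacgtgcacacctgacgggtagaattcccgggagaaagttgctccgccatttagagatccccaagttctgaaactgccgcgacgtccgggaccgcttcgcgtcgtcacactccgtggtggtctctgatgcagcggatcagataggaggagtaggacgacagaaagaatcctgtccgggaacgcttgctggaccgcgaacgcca
Ndufb11: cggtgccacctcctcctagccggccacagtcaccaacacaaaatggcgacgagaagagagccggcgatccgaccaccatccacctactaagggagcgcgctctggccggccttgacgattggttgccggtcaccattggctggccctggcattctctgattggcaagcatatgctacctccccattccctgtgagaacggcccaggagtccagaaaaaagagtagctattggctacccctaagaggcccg
Cox7b: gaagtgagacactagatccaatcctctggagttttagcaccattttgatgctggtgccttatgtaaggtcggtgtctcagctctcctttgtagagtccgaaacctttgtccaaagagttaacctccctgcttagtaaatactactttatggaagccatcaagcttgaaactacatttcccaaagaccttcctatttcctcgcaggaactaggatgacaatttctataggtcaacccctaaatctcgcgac
Sdhb: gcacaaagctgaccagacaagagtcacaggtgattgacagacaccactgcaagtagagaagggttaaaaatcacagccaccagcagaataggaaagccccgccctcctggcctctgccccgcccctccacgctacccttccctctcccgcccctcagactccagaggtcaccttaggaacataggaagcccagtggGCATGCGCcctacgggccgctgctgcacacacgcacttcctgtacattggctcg
Uqcrh: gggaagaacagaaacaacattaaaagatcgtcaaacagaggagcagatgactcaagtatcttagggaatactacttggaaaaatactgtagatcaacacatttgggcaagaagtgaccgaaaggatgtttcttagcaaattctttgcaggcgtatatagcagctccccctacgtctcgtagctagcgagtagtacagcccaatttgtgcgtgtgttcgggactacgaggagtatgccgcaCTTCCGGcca
Cox7c: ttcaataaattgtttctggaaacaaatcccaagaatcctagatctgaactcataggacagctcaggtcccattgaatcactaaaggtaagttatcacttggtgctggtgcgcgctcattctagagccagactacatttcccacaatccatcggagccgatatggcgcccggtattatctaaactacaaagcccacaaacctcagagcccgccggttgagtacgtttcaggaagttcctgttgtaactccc
Ndufs6: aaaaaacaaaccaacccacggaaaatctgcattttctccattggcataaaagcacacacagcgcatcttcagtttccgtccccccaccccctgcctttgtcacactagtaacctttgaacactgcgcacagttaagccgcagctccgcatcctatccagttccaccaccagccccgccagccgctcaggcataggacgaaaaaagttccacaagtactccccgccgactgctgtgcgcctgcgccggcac
None of the 5 motifs was found in the printed bases of Ndufa1, Ndufb11 and Cox7b. The part of promoter sequence in the co-variation of these genes was not tested. Sdhb held the NRF1 letters, and Uqcrh the reverse complement of the ETS letters. Cox7c and Ndufs6 had no match in these bases.

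Over the whole windows, OXPHOS genes held the motifs of the known mitochondrial regulators at higher shares than the 27025 genes of the table. Their windows were also richer in GC, at a median of 58% against 52.7%, and the part of this in the shares was not tested. The table holds more genes than the 13637 tested in the clones, and shares over the tested genes alone are not given. The NRF1 letters, whose reverse complement overlaps them, so that 1 place can match on both strands, were in the windows of 12 of 76 OXPHOS genes (15.8%) and of 3.05% of all genes. The ETS letters were in 17 of 76 (22.4%) against 9.93%, and the YY1 letters in 8 of 76 (10.5%) against 1.64%. The TATA letters were in 9.21% against 15.7%, and TGACGT was in 11.8% against 8.37%. A match is a description of the letters and does not show that the factor binds. Counting the start as base 1, the YY1 letters began at base 23 in Ndufc1, 24 in Atp5j2, 25 in Ndufs7, 27 in Atp5sl, 30 in Ndufa9, 34 in Ndufs6 and 36 in Ndufs4. In Atp5j they lay 88 bases before the start. With 10 bases on each side and the motif in capitals, 5 of these places are printed to show the bases around the motif.
Ndufc1: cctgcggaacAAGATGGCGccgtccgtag
Atp5j2: ccaggacttcAAGATGGCGtcactcggtg
Ndufs7: ggccgaggccAAGATGGCGgcgctggcgg
Atp5sl: gttacctggcAAGATGGCGgcgcccagag
Ndufa9: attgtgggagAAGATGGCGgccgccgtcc
The 9 letters of the motif are the same in all 5 because the places were searched by them, and the bases around the motif differ from gene to gene.

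Complex II has no mitochondrially encoded subunit, and its 4 genes had their highest means in 4 different clones. Sdha, the flavoprotein, ran from 3358 counts in clone J to 5699 in clone M, Sdhb from 892 in S to 2238 in T, the membrane anchor Sdhc from 1577 in clone L to 4040 in clone D and the anchor Sdhd from 2550 in clone A to 6732 in Q. All 4 passed the F-test, as did 95.1% of the 13637 genes tested. Of the 7 core subunits of complex I examined, which carry the flavin and the iron-sulfur clusters, 6 passed the F-test. Among them, the lowest and highest clone means were 1376 (C) and 2710 (Q) for Ndufs1, 499 (H) and 890 (O) for Ndufs3, 510 (G) and 1039 (V) for Ndufs8, 865 (J) and 1824 (K) for Ndufv1 and 649 (J) and 1119 (H) for Ndufv2. Ndufs7, at 432 (O) to 779 (H), did not pass (adjusted p = 0.211).

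The level of the set as a whole was summarised as the median of the 83 genes' log2 deviations from the clones' mean. It was highest in clones H (0.23), U (0.16) and T (0.16) and lowest in O (-0.26), J (-0.20) and C (-0.18). In H, 74 of 83 genes were above their mean over the clones, and in J 70 were below. This median could not be separated from library differences: its SD between the 2 libraries of a clone was 0.149, and its SD between clones 0.127. Library A was above library B in 18 of 23 clones, and the median of A minus B over all 23 was 0.14. The SD between libraries is that of single libraries and includes this shift. The SD between clones is that of the mean of 2 libraries, so the 2 SDs are not directly comparable. The order of most neighbouring clones is within the spread between libraries.

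**Figure D3:**
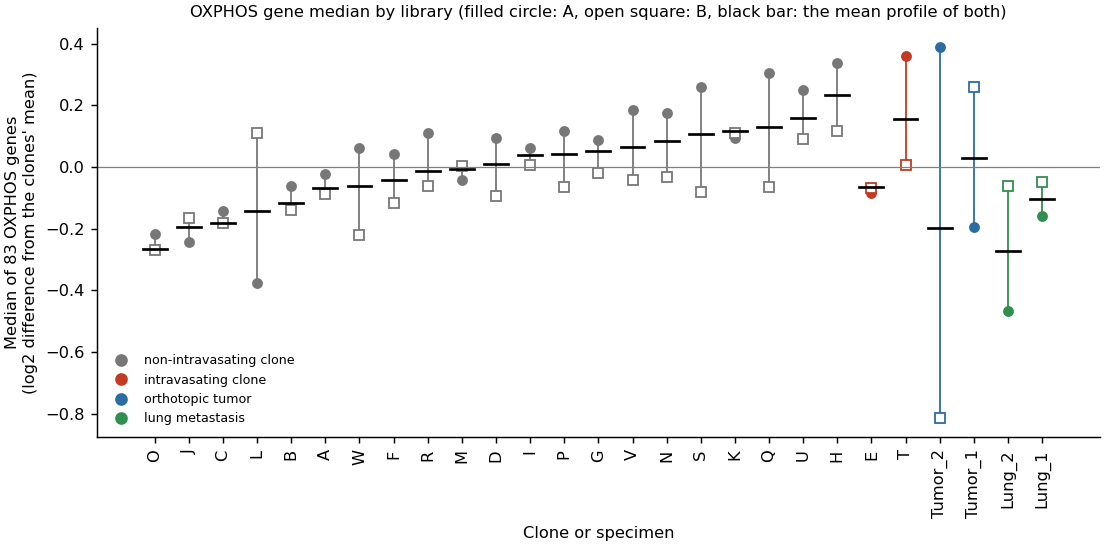
Median log2 deviation of 83 OXPHOS genes from the clones' mean in each library (vertical axis), for 23 clones and 4 specimens ordered within their class. Filled circles are A libraries, open squares B libraries and black bars the value of the mean of both. The 2 libraries of Tumor_2 lie at 0.39 and -0.81, further apart than those of any clone.

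The set median moved with the weight that a library gave to short transcripts. For each library the deviations of 10808 genes outside the set were regressed on log2 transcript length. The slope ran from -0.10 to 0.13 per doubling of length in the clone libraries and was 0.18 in library B of Tumor_2. Its correlation with the OXPHOS median was -0.90 over 46 clone libraries and -0.93 over 54, given as a description. With the trend on length and GC content removed from each library, the SD of the median between libraries of a clone was 0.0694 and that between clones 0.0767, and the r of A and B libraries over clones went from 0.35 to 0.59. The order of the clones changed: K (0.11) and H (0.11) were then highest, O (-0.15) and C (-0.14) lowest, and J stood at -0.03. Under this correction 69 of 83 genes had their most alike gene on their own chromosome, and pairs on the same and on different chromosomes had median r of 0.55 and 0.07. The source of the length slope was not tested.

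**Figure D4:**
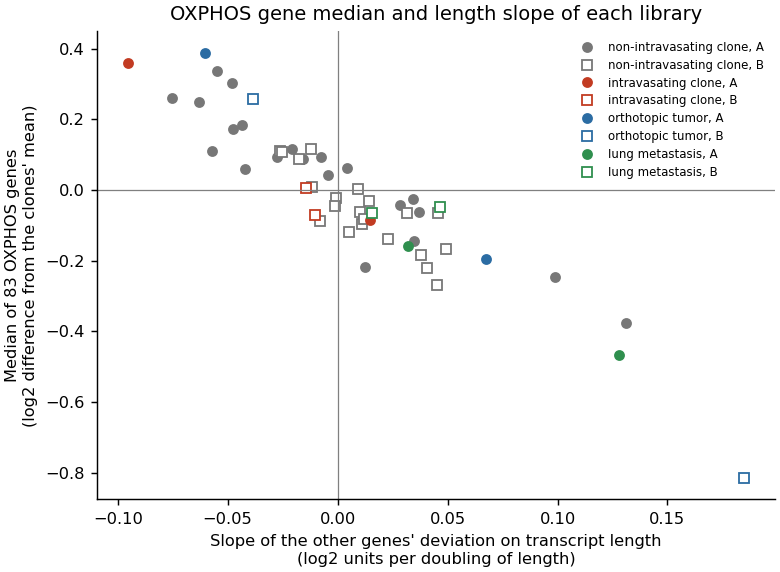
Median log2 deviation of 83 OXPHOS genes (vertical axis) against the slope of the deviation of 10808 other genes on transcript length (horizontal axis, log2 units per doubling), 1 point per library, coloured by class. Libraries in which short transcripts were higher lie at the left and have the higher OXPHOS medians, and library B of Tumor_2 lies at 0.18 and -0.81.

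The second comparison asked whether OXPHOS genes differ between the 2 intravasating and the 21 non-intravasating clones. None of the 83 passed the threshold (limma on 1 value per clone), and 0 of 13637 genes passed, so that 0% were called. At an unadjusted level of 0.05, 109 genes and 1 OXPHOS gene were below it. That gene was Sdhb, which averaged 2238 counts in T but 1295 in E, a difference of 0.45 ± 0.20 (SE) on the log2 scale (adjusted p = 0.9998). For Sdhb, 9 clones were above E and none was above T. Uqcrh came next at 0.45 ± 0.22, with 1861 counts in E and 3202.5 in T. The next 4 by p were Cox7a2 (0.28 ± 0.18), Ndufb6 (0.35 ± 0.23), Sdha (-0.24 ± 0.17) and Ndufb11 (0.36 ± 0.26). Sdhb and Uqcrh lie on chromosome 4, whose other genes were highest in T and at 0.01 in E. The OXPHOS median of the difference was 0.08 against 0.00 for all genes. It was 0.16 without clone E and -0.06 without clone T, so its sign rested on clone T.

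The third comparison set the 2 orthotopic tumors against the 23 clones, that is, tumors grown in the mammary gland, which may hold host cells, against cells in culture. Of 84 genes 3 were lower and none higher, against 1.43% lower and 4.15% higher among 13875 genes. In either direction, 11 of the 84 were under an unadjusted 0.05, as were 2614 of the 13875 genes. Ndufa9, an accessory subunit at the joint of the 2 arms of complex I (chromosome 6, 126821721 to 126849136, minus strand), had 1050 and 1306 counts in the libraries of Tumor_1 and 1250 and 564 in those of Tumor_2. Its clone means ran from 1281 over 1709 to 2107, above both tumor means (log2 difference -0.68 ± 0.16 SE, adjusted p = 0.00848). Atp5b had 46513 and 52664 counts in Tumor_1, 47635 and 29009 in Tumor_2, and clone means from 54062 over 72299 to 96916 (-0.72 ± 0.18, adjusted p = 0.0181). Atp5g2, 1 of the c subunit genes, had means of 571 and 518 in the tumors and of 551 to 1219 in the clones, which overlap (-0.67 ± 0.20, adjusted p = 0.0460).

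These tumor calls rested on library B of Tumor_2, the lowest of the 4 tumor libraries in all 3 genes. Without it no gene was lower and 2 accessory subunits of complex I, Ndufa3 and Ndufa7, were higher, the difference was -0.41 for Ndufa9, -0.54 for Atp5b and -0.36 for Atp5g2, none past the threshold, and the median of the 84 genes went from -0.07 to 0.22 (all genes 0.03). With A libraries alone 0 were called, with B libraries alone 5, all lower, and the shares of all genes called in these fits are not given here. Without Tumor_1 the count was 1, and without Tumor_2 it was 0. On a log2(CPM + 1) scale (CPM, reads scaled to library size) the median of all genes moved to 0.14 and that of the OXPHOS genes to 0.04, and 1 gene was lower and 1 higher. No direction for the set is therefore given in the tumors.

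The fourth comparison set the 2 lung metastases against the clones. Of 84 OXPHOS genes 12 were lower (14.3%) and none was higher, where 5.93% of 14107 genes were lower and 11.5% higher. In either direction, 25 of the 84 were under an unadjusted 0.05, as were 4315 of the 14107 genes. The median difference was -0.20 for the OXPHOS genes and 0.06 for all genes, and 65 of the 84 differences were below 0. By complex as assigned from the symbols, 5 of 36 subunits of complex I, 3 of 7 complex I assembly factors and 1 of 4 genes of complex II were lower. Of complex III 0 of 8 were lower, of complex IV 1 of 12 and of the Atp5 genes 2 of 17. The lung metastases and the tumors were set against the same clones, so those comparisons are not independent.

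Sdha, the catalytic subunit of complex II (chromosome 13, 74322254 to 74350280, minus strand), had 2492 and 2392 counts in the libraries of Lung_1 and 2286 and 2880 in those of Lung_2. All 4 were below the lowest clone mean, 3358, and the median clone had 4555 (-0.80 ± 0.17 SE, adjusted p = 0.00112). The other genes of complex II did not pass, at 0.08 ± 0.21 for Sdhb, -0.46 ± 0.22 for Sdhc and -0.30 ± 0.23 for Sdhd. Atp5a1, the alpha subunit of the ATP synthase (chromosome 18, 77773729 to 77782869, plus strand), had 8823 and 9884 counts in Lung_1 and 8639 and 11993 in Lung_2, where clone means ran from 11439 over 17604 to 24101 (-0.86 ± 0.18, adjusted p = 0.00135). Its exons overlap those of Haus1 on the other strand. Its partner Atp5b had 39508 and 52738 in Lung_1 and 48665 and 54613 in Lung_2 (-0.55 ± 0.18, adjusted p = 0.0382).

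The assembly factor Ndufaf2 (chromosome 13, 108002715 to 108158623, minus strand), which binds a late assembly intermediate of complex I, had the largest difference of the set. It had 499 and 372 counts in Lung_1 and 353 and 474 in Lung_2, below every clone mean (527 to 1394; -1.03 ± 0.22, adjusted p = 0.00179). Ndufaf1, an early-acting assembly factor (chromosome 2, 119655446 to 119662827, minus strand), had 207.5 and 189 counts in Lung_1 and 262 and 299 in Lung_2, against 299 to 557 in the clones (-0.65 ± 0.17, adjusted p = 0.00738). The third was Ndufaf7, an arginine methyltransferase of complex I assembly, at -0.47 ± 0.16. Among subunits, Ndufv1, which holds the flavin and the NADH site, was lower by -0.64 ± 0.19, with 870 and 857 counts in Lung_1 and 714 and 1031.5 in Lung_2. The remaining calls were Ndufs6 (-0.62), Ndufa9 (-0.62), Ndufc2 (-0.55) and Ndufa8 (-0.44) in complex I and Cox7c (-0.67) in complex IV. Of the other complex I core subunits none passed. Ndufs7 and Ndufv2 were at -0.01 and -0.03, and Ndufs8 was at -0.33 ± 0.18.

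These calls rest on 4 libraries of 2 metastases. Without Lung_1 the count was 1 and without Lung_2 it was 3, with medians of -0.27 and -0.11. With B libraries alone 4 genes were lower and 2 higher, at a median of -0.03, and with A libraries alone, those with more genes detected, 17 were lower, at -0.34. The shares of all genes called with A or B libraries alone are not given here. The slope on transcript length was 0.13 in A and 0.02 in B of Lung_2. The CPM scale gave 6 lower and 2 higher, at medians of -0.06 for the OXPHOS genes and 0.18 for all genes. Sdha, Atp5a1 and Ndufaf1 stayed past the threshold in all of the 11 alternatives except that without Lung_1, and Ndufaf2 in all except that without Lung_2.

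**Figure D5:**
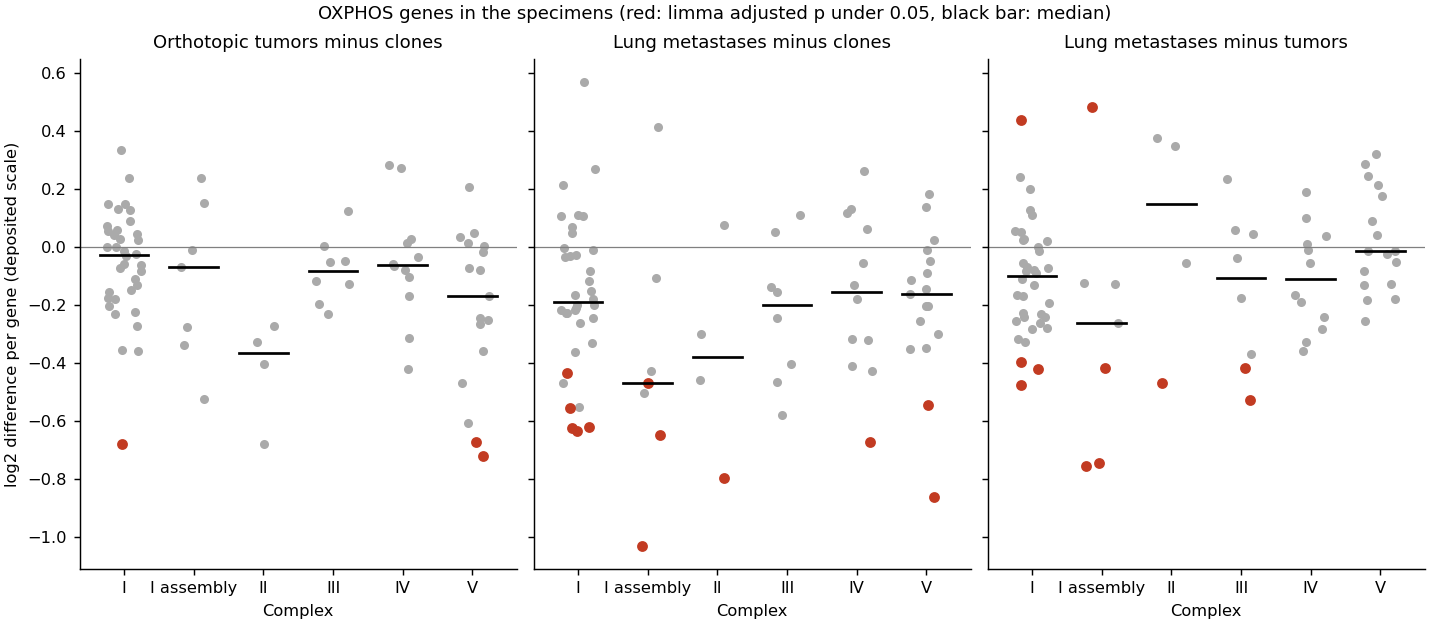
log2 difference of each of 84 OXPHOS genes (points) by complex, for tumors against clones, lung metastases against clones, and lung metastases against tumors. Red points passed the threshold of limma and black bars are medians. In the middle panel all 12 red points lie below 0, with Ndufaf2 at -1.03.

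The fifth comparison set lung metastases against orthotopic tumors, 2 specimens against 2. Of 84 genes 9 were lower (10.7%) and 2 higher (2.38%) in the metastases, against 14.8% lower and 16.6% higher of 13702 genes, so neither share was above that of all genes. Ndufaf4 had 609 and 573 counts in Lung_1, 494 and 466 in Lung_2, 938.5 and 972 in Tumor_1 and 1020 and 819 in Tumor_2, with no overlap (-0.74 ± 0.12 SE, adjusted p = 0.00298). Ndufaf2 had 697 and 1056 in Tumor_1 and 838 and 515 in Tumor_2, all above the lung values given before (-0.76 ± 0.14, adjusted p = 0.00442). The assembly factor Ndufaf5 had means of 155 and 152 in the metastases and 232 and 217 in the tumors (-0.42 ± 0.12). The other lower genes were Sdha (-0.47), Uqcrq (-0.53) and the core protein Uqcrc2 (-0.42) of complex III, and Ndufs6 (-0.48), Ndufa12 (-0.42) and Ndufb5 (-0.40) of complex I.

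The 2 higher genes were Ndufaf3 and Ndufv3. Ndufaf3, an assembly factor that acts early on complex I, had 239 and 285 counts in Lung_1, 228 and 246.5 in Lung_2, 169 and 179.5 in Tumor_1 and 182.5 and 121.5 in Tumor_2 (0.48 ± 0.12, adjusted p = 0.0187). Ndufv3 had 717 and 817 in Lung_1, 682 and 869 in Lung_2, 532 and 646 in Tumor_1 and 759 and 346 in Tumor_2, so that a tumor library lies among the lung values (0.44 ± 0.11, adjusted p = 0.0186).

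The count again depended on Tumor_2. Without its library B 28 of 84 were lower and 1 higher, at a median of -0.42. Ndufv3 was then at 0.19 (adjusted p = 0.325) and Ndufaf3 at 0.38 (adjusted p = 0.0445). The other named differences also moved with the libraries. Uqcrq was at -0.99 without that library and at -0.03 with B libraries alone, Ndufs6 at -0.83 and -0.11, and Uqcrc2 at -0.64 and -0.13, whereas Ndufaf4 was at -0.82 and -0.72 and Ndufaf2 at -0.92 and -0.74. None of these 5 passed with B libraries alone. Leaving out Tumor_1 gave a count of 0. With A libraries alone 9 were lower, at -0.41, and with B libraries alone 0 were called, at 0.22, which is the opposite direction. When the clones were added to the fit, so that they shared in the estimate of the spread, 0 of 84 passed. Shares of all genes called under these alternatives are not given here, so the OXPHOS counts cannot be set against them.

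Genes that work with OXPHOS were described from lists, to be read against the shares of all genes called in the same comparisons (5.93% lower and 11.5% higher for metastases against clones, 14.8% and 16.6% against tumors). In the lung metastases against the clones, cytochrome c (Cycs) and the mitochondrial phosphate carrier Slc25a3 were lower (-0.97 ± 0.30 and -0.65 ± 0.18), 2 of 16 electron transport and ATP export genes with other names. Of 33 other assembly factors 5 were lower and 1 higher, with Lrpprc, which stabilises mitochondrial transcripts, at -0.81 ± 0.15, Coa5 and Nubpl both at -0.65, and Cox16 at 0.67 ± 0.20. Of 17 TCA cycle genes 1 was lower, citrate synthase (Cs), with 4739 and 4672 counts in Lung_1 and Lung_2 and 5485 to 10367 over the clones (-0.79 ± 0.19). Of 16 glycolysis genes 1 was higher, the lactate exporter Slc16a3, at 10.96 and 21.9 counts. Against the tumors, 5 of 17 TCA cycle genes were lower, led by Cs (-0.73 ± 0.12) and Ogdh (-0.46 ± 0.12), and 4 of 16 glycolysis genes were higher: Pdk1 (1.10 ± 0.15), a kinase that shuts off pyruvate dehydrogenase, the glucose transporter Slc2a1 (0.46 ± 0.13), Eno1 (0.42 ± 0.13, at 26.4 to 55.0 counts) and Pfkp (0.42 ± 0.12). In the same comparison 5 of the 16 electron transport genes were lower, with Cycs at -0.82 ± 0.12 and the complex III subunit Cyc1 at -0.54 ± 0.13, and 1 was higher. Of the 33 assembly factors 7 were lower, with Lrpprc at -0.76 ± 0.11, and 1 was higher. Cs had 9182 and 5918 counts in libraries A and B of Tumor_2, and at most 5481 in a lung library. Cycs had 1430 and 686 counts in those tumor libraries, and at most 620 in a lung library. Values of the list genes under the alternatives are not given here.

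Among 14 regulators of mitochondrial biogenesis, Nrf1, the gene of the factor whose letters stood in 12 of the promoters, was lower in both kinds of specimen. It had 840 and 661 counts in Tumor_1 and Tumor_2 and 569 and 645 in Lung_1 and Lung_2, all below the lowest clone mean of 983 (limma adjusted p = 0.00112 in tumors and 2.78e-06 in metastases). The 2 libraries of Tumor_2 had 447.5 (A) and 875 (B) counts of Nrf1. Tfam, which packages and transcribes mitochondrial DNA, was also lower in both (-0.62 ± 0.17 and -0.56 ± 0.17), and Gabpa in the tumors (-0.56 ± 0.14). In the metastases against the tumors Myc (-0.69 ± 0.13), Pprc1 (-0.65 ± 0.14) and Ppargc1b (-0.43 ± 0.13) were lower and Nfe2l2 (0.71 ± 0.11) was higher. Ppargc1b had 70.9 counts in library A of Tumor_2 and 71.0 in library A of Lung_1, so libraries of tumors and metastases overlapped. Myc had 6085 counts in library B of Tumor_2 and 5902 in library B of Lung_1, without overlap. The 12 OXPHOS genes with the NRF1 letters had a median difference of -0.10 in the tumors and -0.09 in the metastases, and the 60 without them -0.07 and -0.19. These medians are a description of 2 unequal sets of genes.

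Markers of several other cell types were higher in the specimens, most of them in the metastases. Macrophage markers summed to 362 and 376 counts in the tumors and 374 to 868 in the metastases, within the 83.8 to 532 of the clones except for 1 metastasis, and 5 of the 7 measured were higher in the metastases. Fibroblast markers summed to 663 to 761 and 1658 to 4452 (clones 119 to 1782, 5 of 6 higher in the metastases), leukocyte markers to 81.4 to 95.3 and 136 to 380 (clones 5.14 to 265, 5 of 5 higher) and endothelial markers to 23.8 to 32.2 and 52.4 to 60.3 (clones 2.07 to 19.1, 3 of 7 higher). The tumor sums of macrophage, fibroblast and leukocyte markers lay within the range of the clones. Pericyte and smooth muscle markers were above every clone (34.5 to 91.2) in both, at 100 to 146 in the tumors and 121 to 198 in the metastases (2 and 3 of 10 higher). Erythroid markers stood at 86.9 to 113 in the tumors, 78.3 to 79.3 in the metastases and 30.5 to 83.4 in the clones, with the globins Hba-a1, Hbb-bs and Hbb-b1 under 1 count in every specimen. Markers of lung epithelium, at 176 and 179 in the metastases, were below the 232 to 701 of the clones, with Sftpd under 1 count. Skeletal muscle markers stood at 303 to 424 in the specimens and 123 to 700 in the clones. The 4T1 epithelial list stood at 15655 and 22199 in the metastases and at 16385 to 88949 in the clones. Fewer tumor cells and less RNA per tumor cell cannot be told apart in bulk samples, and the part of host cells in the OXPHOS differences was not tested.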

How the data were processed

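RNA was measured in 54 libraries, 46 of clones and 8 of specimens. The authors deposited log2 values of 23481 genes; reads were aligned with Bowtie2 to mm10, counted with HTSeq and normalized with DESeq, per the submitters' processing notes, with no versions or strand setting given in the sources used here. The values are variance-stabilised, with genes without reads at 5.03. This scale was inverted to normalized counts, and whole reads (within 0.01) were recovered. The number of columns without a sample was 0. Genes with a count of at least 10 in at least 2 libraries of a comparison were tested with limma 3.58.1 in R 4.3.3 on the deposited log2 values, with Benjamini-Hochberg adjustment over all genes tested and a threshold of 0.05. The F-test used libraries as replicates. All other comparisons used the mean of the 2 libraries of a clone or specimen. The fits were tested on simulated data.

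The members and lists were chosen with earlier results of these data known, and the description by chromosome and the length trend were chosen after seeing these values. Named genes are the 12 largest differences past the threshold per comparison (the 6 smallest p where none passed), the 10 widest and 6 narrowest ranges among clones with a mean of at least 50 counts, alternative isoforms, the Sdh genes and the 7 core subunits of complex I; from other lists, up to 4 genes each. Genes named for their chromosome and library were chosen after their values were seen. Transcript lengths and positions came from GENCODE M21. Library letters were not taken as pairing the clones, since the correlation of A minus B between clones had a median of 0.08 and was above 0.1 in 113 of 253 pairs only; a difference between the letters in the set median is given in the report. Alternatives were other scalings, a pseudocount of 1, other filters, libraries left out and length and GC correction. Sequences of proteins were not used here. Values of 1 gene of the set are not reported here, although the gene is part of the counts and medians.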

Additional observations from a re-analysis of the deposited data

Results flagged for a closer look

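Outlying libraries were looked for in 66 groups of 4 libraries, and chance flags about 1 in 20 such groups. In 3 groups 1 library lay far from the others. Atp5g2, a c subunit gene of the ATP synthase, was at 8.99 on the deposited log2 scale in library A of Lung_2, where the nearest lung library was at 9.62 (gap 0.904 of the range of the 4, past the 95% critical value of Dixon). In the intravasating clones, Atp5g2 was at 10.29 in library A of clone T, with the nearest at 9.74 (0.897). Uqcrq, a small subunit of complex III, was at 10.93 in the same library, with the nearest at 10.35 (0.864).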

How the results depend on the processing

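The number of OXPHOS genes that differ among clones stayed at 74 to 83 over 54 alternatives, and the number with their most alike gene on their own chromosome at 61 to 70 over 26. Between intravasating and other clones 0 passed in all 10 alternatives. For tumors against clones the count of 3 became 6 with no filter on low values, 2 (both higher) without library B of Tumor_2, 0 with A libraries, 5 with B libraries and 0 to 1 when 1 tumor was left out, and the median became 0.22 without library B of Tumor_2. For lung metastases against clones the count of 12 became 19 with no filter, 6 with B libraries and 1 to 3 when 1 metastasis was left out, and the median became -0.033 with B libraries. For lung metastases against tumors the count of 11 became 2 with no filter, 19 with length and GC content removed, 29 without library B of Tumor_2, 0 with B libraries, 0 in 1 fit with the clones and 0 to 17 when 1 specimen was left out. Its median became -0.42 without library B of Tumor_2, -0.41 with A libraries and 0.22 with B libraries, where Ndufb5 was at 0.062. The shares of all genes called under these alternatives are not given here, and the cause of these changes was not tested. Where a specimen was left out, the lone one is assumed to vary like the other groups. With the library letter as a replicate block 80 genes differed among clones, and with the specimen number as a replicate block 13 differed between metastases and tumors (2 higher, 11 lower). These numbers are not known to pair the samples: the correlation of specimen 1 minus 2 between tumors and metastases was -0.10. Of 26 named differences under 333 settings, 216 kept their call, 116 lost it and 1 turned its sign. Cox4i2 and Cox8b, at a few counts, were below the filter and not tested.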
